A study of Mus musculus with 21 samples.

Results

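Alternative exons and splice sites of 10 genes were followed in mouse embryonic stem (ES) cells that lack normal Rbm10 expression. The genes are Sbf2, Ap1s3, Fam69a, Sc4mol, Usp49, Wnk1, Cpsf4, Elf2, Map2k7 and Masp2, of 34369 genes with transcripts in the RNA-seq tables. They were selected on the ES values themselves, the share of one of their transcript forms in the ES KO and ES WT libraries. The ES values below are therefore a description and carry no test. Independent of that choice are the same transcripts and the gene levels in a second cell type, and the RBM10 crosslinks beside the splice sites.

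RBM10 is an X-linked RNA-binding protein that acts on splice site choice. A cassette exon is one that the mature RNA either keeps or skips. An alternative acceptor (3' splice site) or donor (5' splice site) lengthens or shortens an exon. A change of exon can alter the protein, or, where it shifts the reading frame, can place an early stop codon in the RNA and expose it to nonsense-mediated decay.

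The ES libraries were 3 samples of the male gene trap line CSI176, hemizygous for Rbm10Gt(CSI176)Byg and called ES KO here, and 3 samples of its parental line E14Tg2a.4, called ES WT. Both lines grew on gelatin with LIF. The gene trap line is a single line, so the allele and any other difference between the lines cannot be told apart. The second cell type was md MEPA, mesenchymal cells of the mandibular pharyngeal arch of embryos sired by an Immortomouse, grown with 100 U/ml murine interferon at 33 °C. It had 4 CRISPR/Cas9 Rbm10 KO clones (clones 1 and 2 deleted in exon 3, clones 3 and 4 in exon 9) and 3 WT samples. The 8 iCLIP libraries, which count the nucleotides that UV light (400 mJ/cm2) joined to protein, came from unmodified md cells, 4 with an antibody against RBM10 and 4 with rabbit IgG. No iCLIP of ES cells was analysed here. The labels do not say that the 3 samples of a line, ES or md WT, were grown apart. P-values therefore reflect how far these samples spread, and that spread may be technical.

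Rbm10 itself had 32.2 to 33.5 TPM (transcripts per 1000000) in ES WT and 3.63 to 4.27 TPM in ES KO. In md cells it had 21.4 to 23.7 TPM in WT, 23.2 and 19.7 TPM in the exon 3 clones and 7.20 and 3.49 TPM in the exon 9 clones, so TPM does not check the labels of the exon 3 clones. All 9 ES markers, Pou5f1 and Nanog among them, had at least 1 TPM in every ES library, but their levels differed between the lines. Nanog had 313 to 344 TPM in ES WT and 165 to 229 TPM in ES KO, and Esrrb 203 to 249 and 80.3 to 137 TPM. Sox2 and Klf4 were also lower in ES KO. Pou5f1 (553 to 571 and 634 to 683 TPM) and Utf1 were higher, and Zfp42, Tdgf1 and Dppa5a overlapped. The summed level of 7 fibroblast markers was 2.50 to 5.94 TPM. The 7 markers of differentiating cells found in the tables summed to 34.7 to 48.1 TPM in ES WT and 38.6 to 67.7 TPM in ES KO, and their part in the results was not tested. Most of these sums was Pax6, at 31.7 to 45.3 TPM in ES WT and 35.2 to 60.3 TPM in ES KO. Each of the others had at most 3.73 TPM in any ES library. The md libraries had Twist1, Prrx1, Col1a1 and Col1a2, but Hand2 was listed at 0 in all of them and Dlx5 stayed at or below 0.231 TPM. Epithelial markers summed to 0.540 to 0.599 TPM in md WT and 0.154 to 9.45 TPM in the clones, endothelial markers to at most 0.193 TPM in either, and the leukocyte markers found to 0.875 to 2.26 TPM in md WT and 1.57 to 10.6 TPM in the clones. Krt14 reached 9.25 TPM in the clones, while Epcam was listed at 0 in all md libraries. The leukocyte sum was Cd68 alone, with Ptprc listed at 0. One ES KO library stood nearer to WT than the rest. ES KO 1 correlated with the other KO libraries at r = 0.979 over log2 gene TPM and with the WT libraries at 0.976 to 0.979, whereas ES KO 2 and 3 correlated with each other at 0.988. In bulk RNA, fewer cells of a type and less RNA per cell cannot be told apart.

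The sequences around the alternative sites show what each choice adds to the RNA. They were read from the NCBIM37 (mm9) genome in the direction of the transcript, at chr7:117484794-117484918 (minus) for Sbf2, chr1:79620247-79620405 (minus) for Ap1s3, chr5:108353594-108353778 (minus) for Fam69a and chr17:47811625-47811879 (plus) for Usp49. Capitals mark the cassette exon between its intron ends. These 4 are shown because they are the cassette exons inside coding sequence with the largest ES differences outside Wnk1.
Sbf2: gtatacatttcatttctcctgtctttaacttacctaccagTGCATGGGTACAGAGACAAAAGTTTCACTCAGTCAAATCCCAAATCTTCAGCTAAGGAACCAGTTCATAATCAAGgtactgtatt
Ap1s3: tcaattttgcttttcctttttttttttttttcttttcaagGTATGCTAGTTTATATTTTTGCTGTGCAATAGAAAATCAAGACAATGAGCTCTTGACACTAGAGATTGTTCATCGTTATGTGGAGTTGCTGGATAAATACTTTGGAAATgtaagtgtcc
Fam69a: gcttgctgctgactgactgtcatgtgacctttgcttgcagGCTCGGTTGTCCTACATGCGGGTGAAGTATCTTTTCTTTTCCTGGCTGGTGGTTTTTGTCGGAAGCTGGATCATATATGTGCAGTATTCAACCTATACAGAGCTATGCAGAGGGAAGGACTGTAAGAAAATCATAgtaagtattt
Usp49: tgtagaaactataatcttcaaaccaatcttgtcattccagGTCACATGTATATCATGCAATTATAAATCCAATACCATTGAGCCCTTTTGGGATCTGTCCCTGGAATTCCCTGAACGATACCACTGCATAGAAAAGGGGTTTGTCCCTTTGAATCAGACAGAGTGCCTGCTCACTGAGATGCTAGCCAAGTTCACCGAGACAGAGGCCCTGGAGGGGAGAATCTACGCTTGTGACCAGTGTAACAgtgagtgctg

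The exons of Sbf2 (75 nt) and Fam69a (135 nt) are multiples of 3 and keep the reading frame, while those of Ap1s3 (109 nt) and Usp49 (205 nt) are not. Of the 30 nt before the acceptor, pyrimidines made up 90% at Ap1s3, 73.3% at Sbf2, 60% at Usp49 and 56.7% at Fam69a. The 3954 cassette exons tested in ES cells had a median of 66.7% (quartiles 60% and 70%), so the 4 exons lie on both sides of it. Among all those exons 49.7% were multiples of 3 and the median length was 100 nt.

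Sites that lie a few bases apart are shown next. For Cpsf4 (chr5:145939572-145939714, plus) capitals mark the AG that ends the intron before each of 4 annotated acceptors. For Elf2 (chr3:51068919-51069029, minus) capitals mark the 36 nt between a pair of acceptors, and for Wnk1 (chr6:119906066-119906108, minus) the 3 nt between a pair of donors. For Map2k7 (chr8:4240598-4240745, plus) they mark the 48-nt exon.
Cpsf4: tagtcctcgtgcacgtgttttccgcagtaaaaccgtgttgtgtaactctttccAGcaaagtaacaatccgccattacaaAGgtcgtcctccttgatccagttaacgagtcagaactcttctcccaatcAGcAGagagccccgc
Elf2: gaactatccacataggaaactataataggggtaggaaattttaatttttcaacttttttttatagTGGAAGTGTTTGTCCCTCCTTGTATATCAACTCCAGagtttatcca
Wnk1: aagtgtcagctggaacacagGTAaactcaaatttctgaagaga
Map2k7: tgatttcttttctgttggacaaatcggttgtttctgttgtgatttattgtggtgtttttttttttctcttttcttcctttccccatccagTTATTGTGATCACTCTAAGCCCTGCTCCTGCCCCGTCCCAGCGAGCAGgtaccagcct

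At the Wnk1 pair the intron of the shorter exon opens with the usual gt. The intron of the longer one opens with aa in this annotation, so the second donor lacks the usual letters. Pyrimidines made up 53.3, 43.3, 56.7 and 53.3% of the 30 nt before Cpsf4 acceptors 1 to 4, and 90% before the Map2k7 exon.

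The share of the alternative form was expressed as percent spliced in (PSI), the TPM of annotated transcripts that use the exon or site as a percentage of those that use or skip it. An event counted as changed where the adjusted p was under 0.05 and the groups differed by at least 10 points. In ES cells that rule took 0.556% of 3954 cassette exons and 0.0259% of 3856 splice site pairs. It also took 1.98% of 655 pairs of alternative last exons, a type added after the data were seen, since Masp2 has no event of the other types. Within the 10 genes 27 events were tested in ES cells and 8 passed, in 7 genes: Sbf2, Ap1s3, Fam69a, Sc4mol, Usp49, Wnk1 (2 exons) and Masp2. Cpsf4, Elf2 and Map2k7 had no event that passed, and their event with the lowest p is described. The 12 events so led fall into 6 that were higher and 6 that were lower in ES KO, and in all 12 the ES groups did not overlap, which the choice of genes fixes. The Wnk1 donor pair was added after its values were seen. The calls rest on all 6 ES libraries: of the 22 cassette exons called over all genes, the count was 16 without ES KO 1 and 0 to 3 without any other ES library (0 without ES WT 3, 1 without ES KO 2 or ES KO 3, 2 without ES WT 2, 3 without ES WT 1). The differences of the 12 events kept their sign in all of these, as groups that do not overlap must, so nothing is read from it.

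**Figure D1:**
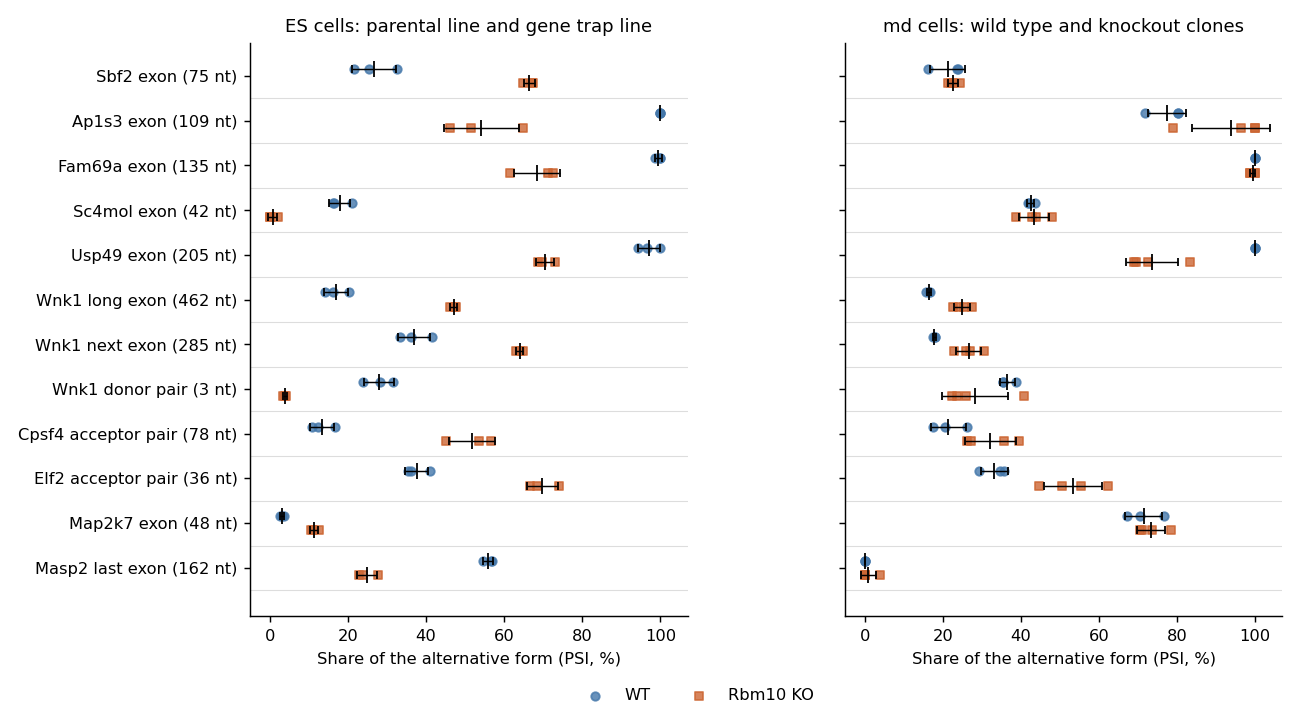
PSI in percent (horizontal axis) of 12 events of the 10 genes in ES cells (left) and md cells (right), with circles for WT and squares for KO libraries, a tick for the group mean and a bar for its SD. The ES groups are apart in every row, while in md cells only Usp49, both Wnk1 exons and Elf2 have groups apart. Sbf2 PSI averages 66.5% in ES KO and 21.3 to 26.6% in the other 3 groups.

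Among genes of membrane traffic, Sbf2 showed a large rise in exon use and Ap1s3 a large loss. Sbf2 encodes a catalytically inactive myotubularin that pairs with Mtmr2 and activates endosomal Rab proteins. Its 75-nt exon (chr7:117484804-117484878, minus strand, coding) had a PSI of 32.6, 25.5 and 21.6% in ES WT and 67.4, 64.8 and 67.1% in ES KO, a difference of 39.9 points. Behind it Sbf2-201, which holds the exon, went from 3.28, 3.39 and 1.87 TPM to 6.68, 5.53 and 6.42 TPM, and Sbf2-001, which skips it, from 5.76, 7.34 and 6.54 TPM to 2.31, 1.92 and 1.86 TPM. The gene's total hardly moved, at 12.5 ± 2.12 TPM in ES WT and 12.0 ± 1.34 TPM in ES KO (SD, n = 3 each).

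In md cells the Sbf2 exon had a PSI of 24.0, 23.7 and 16.1% in WT and 22.6, 22.2, 21.4 and 24.5% in the clones. The groups overlapped, and the difference of 1.43 points (95% interval -4.12 to 6.97) did not pass (limma adjusted p = 0.906). The md WT level was close to that of ES WT, but a different transcript carried it, Sbf2-002 at 2.32 to 3.28 TPM, while Sbf2-201 was at most 0.462 TPM in any md library. The gene's level was 11.7, 10.5, 10.7 and 11.7 TPM in the clones and 15.4, 14.5 and 18.7 TPM in the WT samples, a log2 fold change of -0.49 (SE 0.13) with a limma adjusted p of 0.608. The groups were apart, but this did not pass over all genes.

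Ap1s3 encodes a sigma subunit of the AP-1 adaptor, which gathers cargo into clathrin coats at the trans-Golgi network and endosomes. Its 109-nt exon (chr1:79620257-79620365, minus, coding) was used in 100% of the RNA in all ES WT libraries and in 64.8, 46.1 and 51.4% in ES KO. The form without it, Ap1s3-003, is annotated as a target of nonsense-mediated decay. It was listed at 0 in ES WT and had 5.61, 11.6 and 10.4 TPM in ES KO. The full form Ap1s3-001 had 6.92, 6.08 and 9.06 TPM in WT and 10.3, 9.93 and 11.1 TPM in KO, so it was not lower. The gene total was 7.35 ± 1.54 TPM in ES WT and 19.6 ± 3.23 TPM in ES KO (SD, n = 3 each).

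The md cells went the other way for Ap1s3. The PSI was 80.2, 71.8 and 80.3% in WT and 96.4, 100, 100 and 79.1% in the clones, a difference of 16.4 points (95% interval 3.67 to 29.2, limma adjusted p = 0.426) with overlapping groups, which did not pass. Ap1s3-003 had 1.19, 1.98 and 1.21 TPM in md WT and 0.137, 0, 0 and 1.08 TPM in the clones. The gene total was 3.78, 2.66, 1.38 and 5.17 TPM in the clones and 6.004, 7.04 and 6.12 TPM in the WT samples, a log2 fold change of -0.88 (SE 0.30) with a limma adjusted p of 0.672.

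Sc4mol, also called Msmo1, encodes a methylsterol oxidase of cholesterol synthesis. Its 42-nt exon (chr8:67208391-67208432, minus) lies in the 5' UTR. The exon had a PSI of 16.2, 21.0 and 16.3% in ES WT and 0, 0 and 2.06% in ES KO. The transcript with the exon, Sc4mol-005, had 2.89, 4.14 and 3.84 TPM in ES WT and was listed at 0 in a pair of KO libraries and at 0.453 TPM in the third. It is annotated with 3 exons only, against 6 for Sc4mol-001, so the share rests on a partial transcript model. The gene total was level at 20.5 ± 2.90 and 20.8 ± 3.02 TPM (SD, n = 3 each).

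In md cells Sc4mol was far more abundant than in ES cells, at 400 ± 35.6 TPM in WT (n = 3) and 427 ± 84.3 TPM in the clones (n = 4). Its exon had 41.7, 43.6 and 42.1% in WT and 44.0, 42.8, 38.7 and 47.9% in the clones. The difference of 0.866 points (95% interval -5.19 to 6.93, limma adjusted p = 0.955) did not pass. The interval does not reach a loss of the ES size, 17.2 points, but that ES value chose the gene, so nothing is read from this.

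Wnk1 was the gene with the most changed events. It encodes a kinase without the usual catalytic lysine, which acts on cation chloride cotransporters through Stk39 and Oxsr1. A 462-nt coding exon (chr6:119903789-119904250, minus) had a PSI of 16.2, 14.2 and 20.2% in ES WT and 47.4, 46.1 and 47.6% in ES KO. The 285-nt exon that follows it (chr6:119902703-119902987) had 36.01, 33.2 and 41.5% and 64.8, 64.0 and 63.1%. Both are multiples of 3.

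Part of the transcripts behind the exons are the same. Wnk1-001, which holds both, with 28 exons, had 7.40, 7.78 and 10.9 TPM in ES WT and 21.8, 15.6 and 18.7 TPM in ES KO. Wnk1-202, with 26 exons, lacks both and had 18.8, 19.8 and 17.4 TPM and then 2.25, 1.95 and 2.29 TPM. Wnk1-010, a partial model of 5 exons that also lacks both, had 19.3, 26.9 and 25.1 TPM and 21.8, 16.04 and 17.4 TPM. Wnk1-009, another partial model of 5 exons, counts for the second exon alone, with 13.99, 14.98 and 18.8 TPM and 22.4, 16.2 and 14.8 TPM. With both neighbouring exons required to match, which leaves out Wnk1-202 and Wnk1-010, the long exon had 96.5 ± 2.44% in ES WT and 97.8 ± 2.41% in ES KO (SD, n = 3 each), and the second exon lay between 0.25 and 1.88% in the 6 ES libraries. The ES differences of both exons were thus seen only with the forms that skip both at once counted. Wnk1-202 is also the only transcript with the second donor of the pair of donors printed above. The use of that donor was 31.5, 28.3 and 23.9% in ES WT and 3.29, 3.91 and 4.23% in ES KO. This is the same change of transcript counted at another site, and it did not pass over all site pairs.

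In md cells the Wnk1 exons moved in the same direction by less. The long exon had 16.8, 15.8 and 16.5% in WT and 27.6, 24.2, 25.4 and 22.6% in the clones, and all clones were above all WT samples. The difference was 8.58 points (95% interval 4.47 to 12.7), which did not pass (limma adjusted p = 0.209). The following exon had 18.1, 17.4 and 18.1% in WT and 30.6, 26.0, 27.0 and 23.0% in the clones (8.78 points, 95% interval 3.86 to 13.7, limma adjusted p = 0.275). The second donor had 38.7, 35.5 and 35.4% in WT and 22.5, 23.5, 26.0 and 40.7% in the clones, where clone 4 lay above WT (-8.34 points, limma adjusted p = 0.750). Gene totals were 147 ± 15.1 and 123 ± 16.7 TPM in ES WT and KO (n = 3 each), and 84.8 ± 1.24 TPM in md WT (n = 3) and 87.1 ± 21.5 TPM in the clones (n = 4; md limma adjusted p = 0.998).

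Map2k7 encodes a kinase that activates JNK. Its 48-nt exon (chr8:4240688-4240735, plus, coding) was rare in ES cells, with a PSI of 2.66, 3.14 and 3.70% in WT and 12.5, 10.5 and 11.04% in KO. The difference of 8.16 points is below the 10 points required. The transcript with the exon, Map2k7-002, had 0.630, 0.716 and 0.479 TPM in ES WT and 2.29, 1.72 and 2.16 TPM in ES KO. In md cells the exon was common, at 70.6, 67.3 and 76.6% in WT and 73.5, 70.6, 71.2 and 78.5% in the clones (1.97 points, 95% interval -5.20 to 9.14, limma adjusted p = 0.896). The order of levels was thus ES WT, ES KO and then md, where WT and clones did not differ beyond their spread.

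Fam69a encodes a cysteine-rich membrane protein of the endoplasmic reticulum. Its 135-nt exon (chr5:108353604-108353738, minus, coding) had a PSI of 100, 98.5 and 100% in ES WT and 61.5, 72.5 and 71.2% in ES KO. The skipping form Fam69a-002 had 0, 0.0577 and 0 TPM in WT and 1.504, 0.948 and 1.11 TPM in KO. The gene total was 3.63 ± 0.381 and 3.74 ± 0.256 TPM (SD, n = 3 each). In md cells, where the gene had 7.38 to 14.1 TPM, the exon was at 98.8% or more in all 7 libraries. Events with a mean PSI above 95% were not tested, so this one has no md test.

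**Figure D2:**
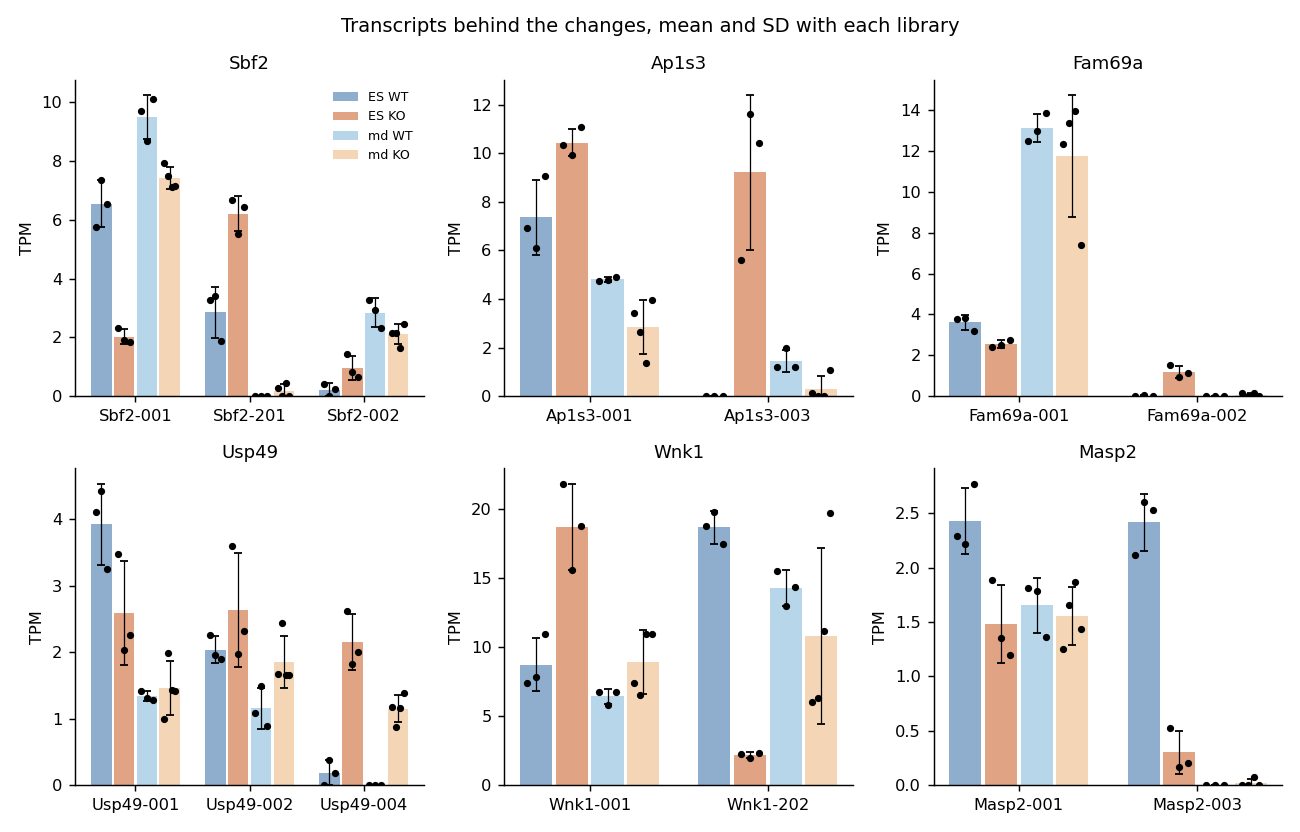
TPM (vertical axis) of the transcripts behind the changes in 6 genes, with a bar for the group mean, a line for the SD and a point for each library (ES WT, ES KO and md WT n = 3, md KO n = 4). Ap1s3-003 and Fam69a-002 are near 0 in ES WT and present in ES KO, and Usp49-004 is present in KO libraries of both cell types.

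Usp49, Elf2 and Cpsf4 act in the nucleus, and here the label of a change particular to ES cells did not hold for Usp49. Elf2 and a pair of Cpsf4 acceptors also had md groups apart in the ES direction, though neither passed in md cells. Usp49 encodes a deubiquitinase of histone H2B. Its 205-nt exon (chr17:47811665-47811869, plus, coding) had a PSI of 100, 94.4 and 96.6% in ES WT and 73.0, 68.7 and 69.6% in ES KO. In md cells it had 100% in all WT samples and 69.5, 83.5, 72.6 and 69.0% in the clones. The groups were apart in both cell types, and the md difference of -26.4 points (95% interval -34.8 to -18.0) was of the ES size, -26.6 points. It did not pass over all cassette exons (limma adjusted p = 0.175), but it passed on the logit scale (limma adjusted p = 0.0337), where 0.0475% of 4211 exons did, and without clone 2 (limma adjusted p = 0.0122), where 0.0236% of 4237 did. In every other setting that tested it, it did not pass. The limma adjusted p ranged there from 0.0730 (exon 9 clones alone) to 0.513 (without md WT 2). The logit values of md WT depend on the 0.1 TPM added to each form, since the skipping form was listed at 0. The ES difference minus the md difference was -0.213 points, with a 95% interval of -10.3 to 9.84 points.

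The skipping form, Usp49-004, is annotated as a target of nonsense-mediated decay. It had 0, 0.380 and 0.180 TPM in ES WT and 2.62, 1.82 and 2.00 TPM in ES KO, and 0 in md WT against 1.17, 0.877, 1.16 and 1.38 TPM in the clones. The gene total was 6.15 ± 0.739 and 7.40 ± 2.04 TPM in ES WT and KO (SD, n = 3 each). In md cells it was 2.50, 2.81 and 2.16 TPM in WT and 3.83, 5.30, 4.24 and 4.45 TPM in the clones, with groups apart (log2 fold change 0.64, SE 0.15, limma adjusted p = 0.602), which did not pass.

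Elf2 encodes an ETS transcription factor. The 36 nt between its acceptors (chr3:51068929-51068964, minus, coding) were used in 41.0, 35.5 and 36.1% in ES WT and 74.2, 68.5 and 66.6% in ES KO. In md cells the shares were 29.3, 35.8 and 34.6% in WT and 44.7, 55.5, 50.7 and 62.3% in the clones. All 4 clones were above WT, by 20.1 points on average (95% interval 9.76 to 30.3), but this did not pass over all site pairs (limma adjusted p = 0.448). The ES difference was 32.2 points, and the ES difference minus the md difference was 12.2 points (95% interval -0.234 to 24.6). Elf2-003, which uses the first acceptor, had 5.17, 1.82 and 2.63 TPM in ES WT and 8.24, 7.13 and 7.21 TPM in ES KO. In md cells it had at most 0.0404 TPM in WT and 3.38, 4.44, 4.63 and 10.6 TPM in the clones. Elf2-004, which uses the second, went from 7.50, 9.90 and 8.11 TPM to 1.64, 3.88 and 3.92 TPM in ES cells, and from 16.03, 15.8 and 15.8 TPM to 15.1, 12.3, 9.33 and 7.80 TPM in md cells. Gene totals overlapped between WT and KO in both cell types, at 13.9 to 17.4 TPM over the ES libraries and 20.7 to 31.4 TPM over the md libraries.

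Cpsf4 encodes the zinc finger subunit of the cleavage and polyadenylation factor that helps to bind the poly(A) signal. One of its exons has 4 annotated acceptors, at chr5:145939627, 145939653, 145939702 and 145939705. The first against the fourth, 78 nt apart, had a PSI of 16.7, 10.7 and 12.4% in ES WT and 45.1, 53.6 and 56.6% in ES KO. Over all 4, the first acceptor rose from 6.29, 3.68 and 4.98% of the TPM to 15.99, 18.9 and 21.5%, and the fourth went from 31.3, 30.7 and 35.3% to 19.5, 16.3 and 16.5%. The second had 33.1 ± 1.74% and 39.9 ± 3.08%, and the third 29.5 ± 1.25% and 23.9 ± 2.46% (SD, n = 3 each).

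In md cells the first against the fourth acceptor had 20.5, 26.3 and 17.5% in WT and 26.2, 39.5, 35.7 and 27.2% in the clones. The difference of 10.7 points had the ES direction but overlapping groups, and it did not pass (95% interval 1.21 to 20.2, limma adjusted p = 0.632). The first against the second acceptor, a pair named after its values were seen, had 32.5, 31.1 and 26.4% in md WT and 37.6, 60.7, 58.8 and 40.4% in the clones. The groups were apart, by 19.4 points (95% interval 4.37 to 34.4), which did not pass (limma adjusted p = 0.561). In ES cells that pair differed by 18.9 points, and the ES difference minus the md difference was -0.452 points (95% interval -17.5 to 16.6). Gene totals were 53.3 ± 6.08 and 56.9 ± 3.38 TPM in ES WT and KO (n = 3 each), and 35.0 ± 1.92 TPM in md WT (n = 3) and 30.3 ± 3.29 TPM in the clones (n = 4; md limma adjusted p = 0.782).

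**Figure D3:**
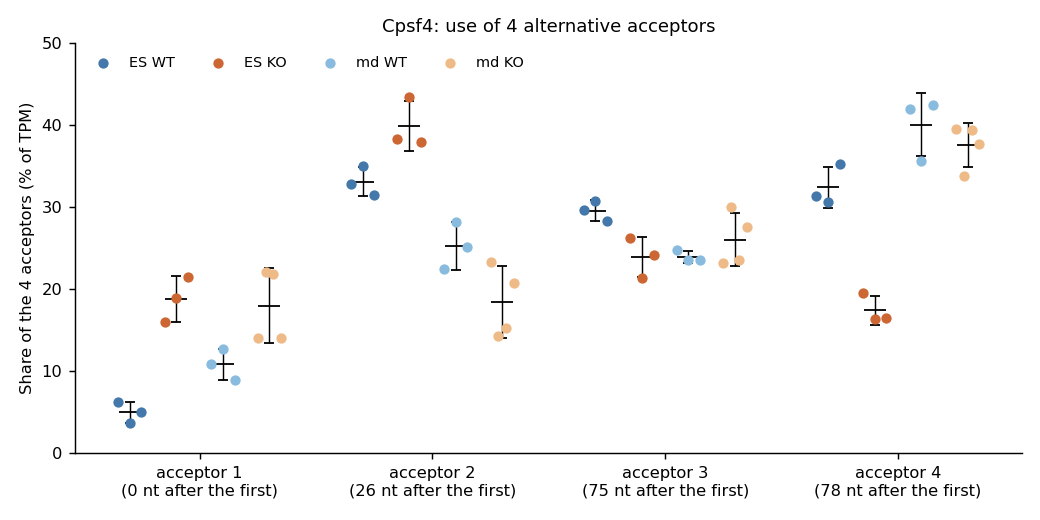
Share of each of 4 alternative acceptors of a Cpsf4 exon in percent of the TPM of the transcripts that use them (vertical axis), with a point for each library and a tick and bar for the mean and SD (ES WT, ES KO and md WT n = 3, md KO n = 4). In ES cells the first acceptor is higher and the fourth lower in KO, and in md cells the first acceptor is at 14.04 to 22.04% in the clones against 8.99 to 12.7% in WT.

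Masp2 encodes a serine protease of the lectin pathway of complement. A short product of the gene, which ends in a last exon of its own and lacks the protease domain, is known. That last exon (chr4:147978365-147978526, plus) is part coding. It is shown with 50 nt of the intron before it (chr4:147978315-147978375), because it is the alternative end of the RNA, and capitals mark its 11 coding bases.
Masp2: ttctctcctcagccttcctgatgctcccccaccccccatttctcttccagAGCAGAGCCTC

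The last exon had a share of 56.5, 56.8 and 54.5% in ES WT and 27.7, 22.9 and 23.8% in ES KO. Masp2-003, the short form, went from 2.12, 2.60 and 2.53 TPM to 0.528, 0.164 and 0.205 TPM, and the full form Masp2-001 from 2.29, 2.22 and 2.77 TPM to 1.89, 1.36 and 1.20 TPM. The gene total was 5.50 ± 0.523 TPM in ES WT and 1.98 ± 0.552 TPM in ES KO (SD, n = 3 each). In md cells the share was 0 in WT and in 3 clones and 3.83% in clone 3, with gene totals of 1.25 to 1.94 TPM over all 7 libraries. Its mean lay below the 5% needed for a test, and 0.0% of the 732 last exon pairs tested in md cells passed (limma; 87 had an unadjusted p under 0.05).

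Over the md test as a whole, 10 of the 12 events could be tested and 0 passed in limma, where 0.0% of 4211 cassette exons and 0.0% of 4135 splice site pairs passed. At an unadjusted p under 0.05 there were 6 of the 10, against 380 of the 4211 and 312 of the 4135. All 4 clones lay on one side of all WT samples in 3 of 7 cassette exons (Usp49 and both Wnk1 exons), where 10.4% of all tested cassette exons did so, and in 1 of 3 site pairs (Elf2), where 8.32% did. The 2 Wnk1 exons share several transcripts and are not independent. The md direction was that of ES in 5 of the 7 cassette exons and in 3 of 3 site pairs, and it differed for Ap1s3 and Sc4mol. Ap1s3 is also among the 6 with an unadjusted p under 0.05. The events of the same direction include both Wnk1 exons and the Wnk1 donor pair, which count the same change of transcript. They also include Sbf2 and Map2k7, whose md intervals span 0. The share of all events with the same direction was not computed, so nothing is read from these counts.

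The ES gene totals are sums of the transcripts the genes were selected on, so they too are a description. Ap1s3 was higher and Masp2 lower in ES KO by the call rule, which took 12.3% of 12860 genes, and nothing is read from that count. Neither met the rule once ES KO 2, ES KO 3, ES WT 1 or ES WT 2 was left out. Without ES KO 1, which stood nearer to WT, 3985 genes passed in place of 1576, while 21 to 61 passed without ES KO 2, ES KO 3, ES WT 1 or ES WT 2. In md cells 0 of the 10 passed and 3 had an unadjusted p under 0.05 (Sbf2, Ap1s3 and Usp49), where 0.0165% of 12090 genes passed (limma).

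Just inside the ES threshold lay the Sc4mol exon, with a difference of -17.2 points, the smallest among the events that passed. Outside it, a 132-nt version of the long Wnk1 exon (chr6:119903789-119903920) had 27.1% in ES WT and 45.7% in ES KO, and an alternative last exon of Sbf2 inside the 75-nt exon had 13.7% and 28.6%. A 138-nt Sbf2 exon (chr7:117632735-117632872) lay farther out, with 97.6% and 89.7%. Its difference of -7.87 points missed both parts of the call rule. Other Cpsf4 pairs of the same 4 acceptors differed by 9.67 to 29.6 points. A 96-nt Sbf2 exon and a 42-nt Wnk1 exon hardly moved, at 1.92 and 2.33 points.

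The iCLIP data give the crosslinks on these RNAs in the RBM10 and IgG libraries of md cells, where all 10 genes were expressed. Crosslinks were counted on the transcript's strand in the alternative segment, in the 100 nt of intron beside it and in the 100 nt inside the intron at the outer splice sites. The RBM10 libraries held 774816 to 2847066 crosslinks and the IgG libraries 103017 to 2214515. Levels are given as CPM, crosslinks per 1000000 of the library. A count of 0, which 3 crosslinks bound, allows up to 29.1 CPM in IgG 3 and 19.0 CPM in IgG 4, so the zeros of those libraries say little about regions this small. All RBM10 libraries shared a sequencing lane and the IgG libraries ran on a different one, so the effect of the lane and that of the antibody cannot be told apart.

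The region of the Cpsf4 acceptors held 23, 76, 104 and 33 crosslinks in RBM10 libraries 1 to 4 and 7, 3, 0 and 0 in IgG libraries 1 to 4. This was 31.6 ± 9.83 CPM against 2.15 ± 3.46 CPM (SD, n = 4 each). Most lay in the 100 nt before the first acceptor, with 16, 60, 79 and 29 against 6, 3, 0 and 0. The most crosslinked base was the c 50 nt before the first base of the segment, with 29 crosslinks in 4 RBM10 libraries and 0 in IgG, and the c before it had 19. Both stand near the start of the printed sequence, in the letters tcctcg.

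The region of the long Wnk1 exon held 52, 116, 158 and 34 crosslinks in RBM10 and 6, 12, 0 and 0 in IgG, or 46.7 ± 6.36 against 2.91 ± 3.37 CPM (SD, n = 4 each). Here the crosslinks lay inside the exon, with 43, 98, 127 and 27 in RBM10 libraries and 3, 5, 0 and 0 in IgG. The stretch that holds its 5 most crosslinked bases (chr6:119904065-119904160, minus) is shown with those bases in capitals. They had 8 to 18 RBM10 crosslinks each and 0 in IgG.
Wnk1: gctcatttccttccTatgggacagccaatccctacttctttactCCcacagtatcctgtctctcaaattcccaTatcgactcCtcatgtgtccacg

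**Figure D4:**
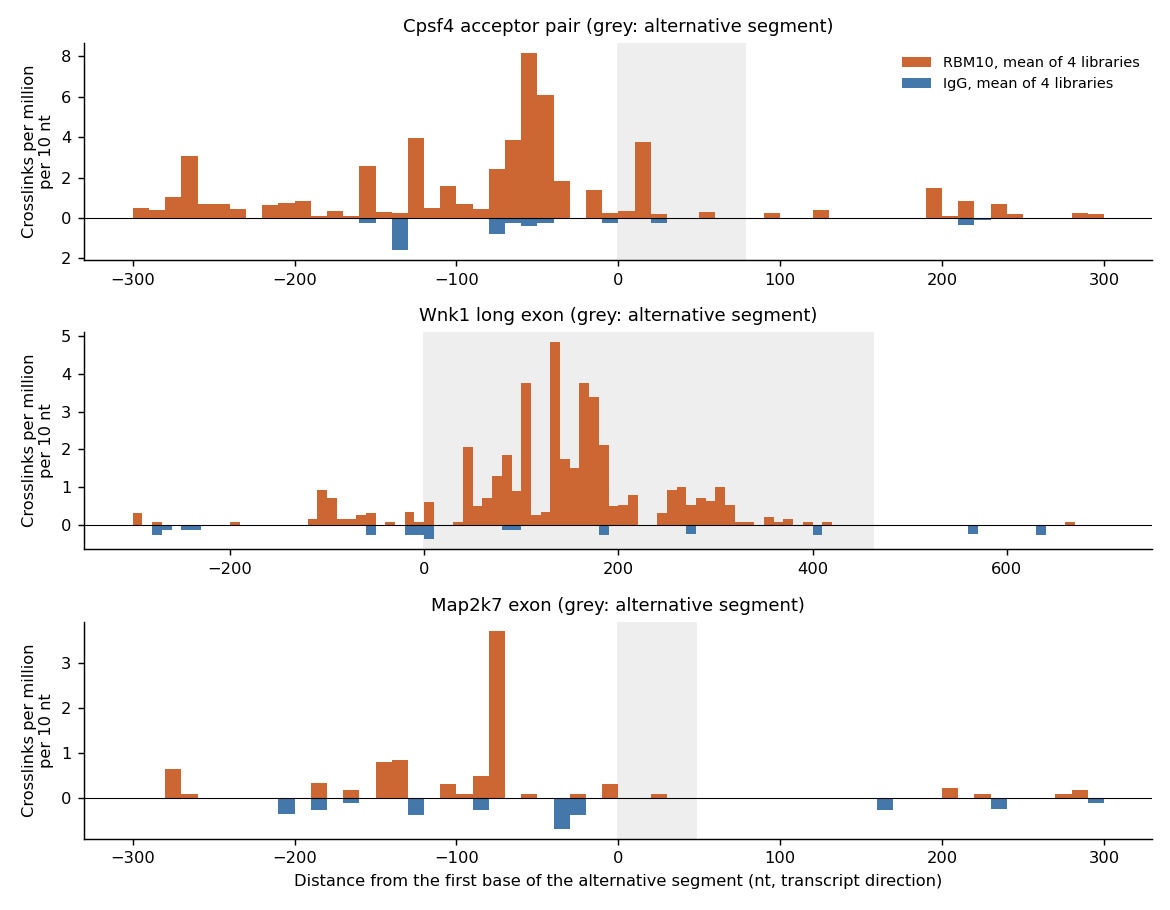
Crosslinks in CPM in bins of 10 nt (vertical axis, mean of 4 RBM10 libraries upward and of 4 IgG libraries downward) against the distance in nt from the first base of the alternative segment (horizontal axis, grey for the segment). The Cpsf4 crosslinks peak about 50 nt before the first acceptor, the Wnk1 crosslinks lie inside the 462-nt exon, and those of Map2k7 peak 79 nt before its exon.

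Of the 12 regions, these 2 held enough crosslinks for the main test, which passed 33.1% of 1083 regions over all genes, and 0 of the 2 passed. The log2 fold change was 1.34 for Cpsf4 (edgeR adjusted p = 0.0881) and 1.25 for Wnk1 (edgeR adjusted p = 0.0953), where the median of all tested regions was 0.58. Both passed without TMM scaling factors (3.29 and 3.21 against a median of 2.55), where 83.1% of all regions passed, and with DESeq2 (2.45 and 2.34 against 1.67), where 70.3% did. Both also passed without RBM10 library 3 (2.02 and 1.90 against 1.15), where 60.5% did. Passing was thus common under these 3 settings. Both passed in the fit of all regions of at least 10 crosslinks (2.41 and 2.33 against 0.93, edgeR adjusted p = 0.0111 and 0.0112), where 13.3% did. Cpsf4 alone passed without IgG library 1 (2.67, edgeR adjusted p = 0.0237), where 23.4% did. With 300 nt beside the splice sites, where 30.0% passed, Cpsf4 passed (1.64, edgeR adjusted p = 0.00978) and Wnk1 did not (0.82, edgeR adjusted p = 0.171). With each position counted once, where 40.4% passed, Wnk1 passed (1.27, edgeR adjusted p = 0.0233) and Cpsf4 did not (1.09, edgeR adjusted p = 0.0861). With each RBM10 library blocked with its own IgG library neither passed (1.56 and 1.61, edgeR adjusted p = 0.216 and 0.159), and 13.1% of regions passed (142 in place of 359).

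The other regions held few crosslinks. The 48-nt Map2k7 exon had 7, 12, 37 and 5 in RBM10 and 3, 10, 0 and 0 in IgG, with overlapping CPM. At 1 c 79 nt before the exon lay 23 of the RBM10 crosslinks and 0 IgG crosslinks. RBM10 libraries 1 to 4 held 2, 3, 15 and 3 of them, so most came from library 3. The exon after the long Wnk1 exon had 10, 23, 39 and 7 against 3, 9, 0 and 0, and Sc4mol had 8, 13, 28 and 13 against 4, 5, 2 and 0. The Sc4mol groups overlapped in CPM. Within that region the 100 nt before the acceptor of the downstream exon had 4, 11, 15 and 10 against 0 in all IgG libraries. The 100 nt after the upstream donor had 1, 1, 3 and 0 against 2, 1, 2 and 0. The Fam69a region held 1, 4, 7 and 6 against 1, 0, 0 and 0, with overlapping CPM. Of these 1, 3, 5 and 6 lay in the 100 nt before the exon, against 0 in IgG. The Elf2 region held 2, 9, 6 and 4 against 1, 1, 0 and 0. Before its first acceptor lay 2, 8, 5 and 4, against 0, 1, 0 and 0. The Usp49 region held 4, 3, 8 and 4 against 1, 1, 0 and 0. It had 0 in the 100 nt before the exon in any library, but 2, 3, 6 and 4 before the acceptor of the exon that follows, against 0 in IgG. The share of single windows over all events with such counts was not computed, so nothing is read from these windows.

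The Sbf2 region had 3, 7, 12 and 2 RBM10 crosslinks against 0, 2, 0 and 0, the Ap1s3 region 1, 2, 1 and 0 against 0, the Wnk1 donor pair 1, 2, 3 and 4 against 0, 1, 0 and 0 and Masp2 1, 1, 3 and 0 against 0. So 2 of the events with a large ES difference, Ap1s3 and Masp2, had almost no crosslinks beside them at this depth, in a cell type where their genes had at most 7.04 and 1.94 TPM. Of the 10 regions with at least 10 crosslinks over all libraries, every RBM10 library lay above every IgG library in CPM in 7, where this held in 39.7% of 11204 such regions. Of these 7, 3 are the Wnk1 regions, which overlap and share crosslinks: the 100 nt after their upstream donor hold the same 1, 1, 3 and 4 in all 3, and those are 9 of the 10 RBM10 crosslinks of the donor pair. In the fit of all regions of at least 10 crosslinks 2 of the 10 passed in edgeR with TMM factors, where 13.3% of all did, and 5 without them, where 44.8% did, which is near the share of all regions.

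Over the alternative segments and the 300 nt on each side of them, the crosslinked base was C in 40.8 to 47.8% and U in 34.6 to 43.9% of the crosslinks of the 4 RBM10 libraries. Windows at outer splice sites farther away were not included. The shares pool all events, and most of the RBM10 crosslinks came from Cpsf4 and Wnk1. In the IgG libraries with more than 4 crosslinks there, C made up 17.7 and 18.8% and U 46.9 and 62.9%. These rest on only 32 crosslinks in IgG 1 and 62 in IgG 2.

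Over whole gene bodies Cpsf4 was the one member that passed of 9 tested, where 37.4% of 9284 genes passed. It had 143, 293, 478 and 122 crosslinks in RBM10 and 40, 76, 2 and 1 in IgG, or 139 ± 29.4 against 25.4 ± 15.7 CPM (SD, n = 4 each; log2 fold change 1.82, edgeR adjusted p = 0.000755). Wnk1 had the most crosslinks of the 10, 455 ± 26.2 against 360 ± 36.3 CPM (0.06, edgeR adjusted p = 0.788). The gene body thus did not pass, and the difference between it and the long exon was not tested. Map2k7 had 104 ± 15.0 against 69.8 ± 5.23 CPM (0.26, edgeR adjusted p = 0.254), which passed without TMM factors (0.53, edgeR adjusted p = 0.0459), where 39.7% of gene bodies passed. The other 6 tested genes had log2 fold changes of -0.80 (Fam69a) to -0.01 (Sbf2). Of these Fam69a, Elf2 and Usp49 passed as lower in RBM10 with each position counted once (edgeR adjusted p = 0.0355, 0.0135 and 0.0380), where 45.0% of gene bodies passed. Masp2, with 18, 18, 29 and 1 against 1, 2, 0 and 0 crosslinks, was too low to test.

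Genes that work with the 10 were followed as lists. In ES cells the median log2 fold change of all 12860 genes was 0.03, and 7.53% of them rose and 4.73% fell. The counts below are to be read against those shares, and in lists of this size they call nothing particular to a list. Of 20 tested genes of cholesterol synthesis, which Sc4mol serves, 3 rose and 2 fell, with a median of 0.26. Ebp, a sterol isomerase, fell from 71.6 ± 2.16 to 34.2 ± 1.95 TPM (log2 fold change -1.05, SE 0.08, limma adjusted p = 0.00354). Tm7sf2, a sterol reductase, fell from 8.40 ± 0.737 to 3.99 ± 1.31 TPM (limma adjusted p = 0.0292), and Hsd17b7 rose from 2.14 ± 0.00971 to 4.80 ± 1.07 TPM (limma adjusted p = 0.0254; SD, n = 3 each).

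Of 16 genes of pre-mRNA cleavage and polyadenylation, the partners of Cpsf4, 3 rose and 0 fell (median 0.20): Pabpn1, Cstf1 and Cpsf2, with log2 fold changes of 0.47, 0.41 and 0.35. Of 15 genes of the JNK cascade around Map2k7 3 rose and 0 fell (median 0.14), among them Jun, from 2.12 ± 0.229 to 4.67 ± 0.655 TPM (n = 3 each; limma adjusted p = 0.0185). The kinases Map3k7 and Map3k5 rose by 0.46 and 0.72 on the log2 scale. Of 10 tested WNK signalling genes 0 rose and 2 fell (median 0.09), among them Slc12a4 (-0.62), a cation chloride cotransporter. Of 11 AP-1 and clathrin genes 2 rose and 0 fell (median 0.01), the adaptor subunit Ap1g1 (0.39) and the small GTPase Arf1 (0.42).

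In the myotubularin and Rab list around Sbf2 1 of 12 rose (Mtmr4, 0.76, limma adjusted p = 0.049996; median -0.08). In the H2B ubiquitination list around Usp49 1 of 10 rose, the deubiquitinase Usp44 (0.63; median 0.07). Of 5 tested ETS factors and partners of Elf2 2 rose, Etv6 (1.16) and Cbfb (0.84; median 0.17), and of 2 tested lectin pathway genes 0 passed (median -0.37). In md cells 0 genes of any of the 9 lists passed (limma), with list medians of -0.09 to 0.16 where the median of all genes was 0.01.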

How the data were processed

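For RNA-seq of polyadenylated RNA the authors deposited TPM per transcript. The quantifier is not given in the sources used here, nor is its annotation, and the read depth behind TPM is unknown. A transcript listed at 0 can be a failed estimate. The iCLIP files the authors deposited hold counts of crosslinks by position and strand, mapped to mm9 per the design text. The submitters' processing notes name the builds mm9 and mm10 without roles. Of 100249 listed transcripts 84877 (84.7%) joined GENCODE vM1, which is on NCBIM37 (mm9), and the rest were left out.

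The members and gene lists were chosen with earlier results of these data known. Events were rebuilt from annotated transcripts: cassette exons, splice site pairs and, added after the data were seen, last exon pairs. PSI was computed from TPM and tested with limma 3.58.1 (R 4.3.3), with trend, where both forms summed to at least 1 TPM in every library and the mean PSI was 5 to 95%. Gene TPM was tested as log2(TPM + 1) with limma, for genes of at least 1 TPM in at least 3 libraries. Fold changes are on that scale and understate the change of low genes. Crosslinks were tested with edgeR 4.0.16 (quasi-likelihood, TMM factors), which gives no SE, with library totals as depth. DESeq2 1.42.0 was an alternative. P-values are 2-sided and were adjusted over all features tested (Benjamini-Hochberg). Intervals cover 95%. Crosslink counts and floors cover counting error only.

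The named events are those that passed in ES cells, or else the event with the lowest p of the gene. From each gene list up to 3 genes with the lowest adjusted p under 0.05 were named. One gene so chosen is not reported here. 1 leukocyte marker and 1 marker of differentiating cells were not found in the tables by these symbols. The design text gives each RBM10 library its own IgG library, so the numbers pair the iCLIP libraries. Their deviations from the group means correlated at -0.0219 to 0.0255 over gene bodies. The tests were checked on simulated data. Python 3.11.15, numpy 2.4.6, pandas 2.3.3 and matplotlib 3.10.9 were used.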

Additional observations from a re-analysis of the deposited data

Results flagged for a closer look

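Differences between cell types came from a limma fit of the 4 RNA-seq groups that compares the ES with the md difference. Since its ES side chose the genes, the values are a description. They were 38.4 points (95% interval 29.6 to 47.3) for the Sbf2 exon, -62.3 (-79.4 to -45.2) for the Ap1s3 exon, -30.5 (-37.8 to -23.3) for the Fam69a exon and -18.0 (-25.2 to -10.8) for the Sc4mol exon. For the long Wnk1 exon it was 21.6 (15.6 to 27.6) and for the exon after it 18.3 (10.8 to 25.8). Those of Usp49 (-0.213 points), Elf2 (12.2), Cpsf4 (27.8), the Wnk1 donor pair (-15.8) and Map2k7 (6.20) did not pass.

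Single libraries stood apart from their group of 4 by their gap to the nearest one, which chance gives in about 1 of 20 groups of continuous values. That rate does not hold where the other 3 are at 0, since any value above 0 then stands apart, as for Masp2 and the IgG libraries here. In the md clones this was clone 3 for the last exon of Masp2, at 3.83% against 0. Among RBM10 libraries it was library 2 for the Usp49 gene body (32.7 CPM, the lowest), library 3 for the Sbf2 exon region (4.22) and the region of the exon after the long Wnk1 exon (13.7), and library 4 for the Wnk1 donor pair (5.16). Among IgG libraries it was library 2 for the Sbf2 exon (0.903) and the Wnk1 donor pair (0.452) and library 1 for the Fam69a exon (1.04). In these 3 IgG cases the other libraries held 0 crosslinks.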

How the results depend on the processing

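The ES differences of the 12 events kept their sign in all 127 alternative values that could be computed. None could be computed for the Wnk1 exons with strict flanks, where the mean PSI left the tested range. The ES groups of all 12 do not overlap, so most of these settings could not change the sign, and nothing is read from that count. The md differences kept their sign in 134 of 137 values, the exceptions being small differences of Sbf2, Sc4mol and Map2k7. Leaving out 1 library gave, as lowest and highest counts of calls, 0 to 16 for ES cassette exons (22 in all libraries), 1 to 2 for ES site pairs (1), 0 to 1 for md cassette exons (0), 7 to 63 for cassette exons that differ between cell types (24), 2 to 12 for such site pairs (3), 21 to 3985 for ES genes (1576), 0 to 4 for md genes (2), 232 to 562 for event regions (359) and 1794 to 4018 for gene bodies (3472). It left 0 md site pairs in every case. On the logit scale the counts were 13 ES cassette exons, 2 ES site pairs, 2 md cassette exons, and 11 cassette exons and 5 site pairs that differ between cell types. With at least 5 TPM in every library they were 34 ES cassette exons and 6 ES site pairs. Without a TPM filter they were 13 and 4, with 2 md cassette exons. With strict flanks, where both neighbouring exons must match, there were 2 ES site pairs. Under that setting the cell type difference of the long Wnk1 exon reversed to -10.6 points, as Wnk1-202 and Wnk1-010, which skip 2 exons at once, are then left out. Of last exon pairs (13 in ES and 0 in md cells), 5 and 0 passed on the logit scale, 0 and 1 without a TPM filter, 0 and 0 with the replicate block, and 0 to 15 and 0 to 1 without 1 library. The exon 9 clones alone, a setting added after the data were seen, gave 1 md site pair. For genes, no filter on low values gave 774 in ES and 6 in md cells, and 0 md genes passed with a pseudocount of 0.1 or at least 5 TPM. Event regions numbered 900 without TMM factors, 761 with DESeq2, 1494 with at least 10 crosslinks, 5020 with at least 10 crosslinks and no TMM factors (added after the data were seen) and 717 with 300 nt beside splice sites. The share of called regions that were higher in RBM10 was 56.3% in the main test and 96.7, 88.8, 87.01, 98.6 and 54.4% under these.

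ES and md replicate numbers are shared by the labels, but same-numbered libraries deviated together at only -0.135 to 0.165 over ES genes and -0.110 to -0.00124 over md genes, so the numbers were not taken as pairs. With the replicate block 0 ES cassette exons, 422 ES genes and 0 md genes passed. For iCLIP, where the numbers pair the libraries, the replicate block gave 142 event regions and changed no call of a gene body of the 10. TPM holds no depth, and the IgG libraries 3 and 4 are too shallow to show regions of a few CPM.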
